A study of Mus musculus with 22 samples.

Results

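Potassium channels of the Kcn gene families were followed in islets of mice that carry the S64F change in MAFA, a transcription factor of mature beta cells. The genes were taken by symbol: 99 rows of the deposited table begin with Kcn, and after 5 antisense transcripts and 1 further gene were set aside, 93 of the table's 56860 symbols remained. Of these, 49 had at least 1 TPM (transcripts of a gene per 1000000, corrected for gene length) in at least 5 of the 22 samples and are described by level, and the other 44 are named below as silent or nearly so. Each sample held islets of 1 male mouse, and poly(A) RNA was sequenced. Age is given as 5.5 weeks for the series and as 5 to 6 weeks in the column names of the deposited table. Heterozygous carriers of the MAFA S64F allele (Het) were compared with wild-type mice (WT) on a C57 background (5 WT, 6 Het) and on a background labelled Mixed (5 WT, 6 Het), whose strains the labels do not give. Apart from genotype and background, the 4 groups shared sex, labelled age and tissue, and no agent was given.

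A potassium channel sets how negative the cell membrane rests and how fast it returns there after each action potential. In a beta cell, glucose metabolism closes ATP-sensitive channels, the membrane depolarises, calcium enters and insulin is released; voltage-gated, calcium-activated, two-pore leak and G-protein-gated channels then limit or end that activity. Pores are built from alpha subunits, and several Kcn genes encode auxiliary subunits or electrically silent subunits that only modify a partner's pore.

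Whole-series measures come first. Mafa averaged 441 TPM in C57 WT, 117 TPM in C57 Het, 598 TPM in WT islets and 152 TPM in Het islets of the Mixed background, so it was lower in the Het groups, while the S64F base change itself is not visible in a table of gene levels. The 7 beta cell markers listed for the check summed to 369799 to 449717 TPM in C57 WT, 323698 to 379126 in C57 Het, 401090 to 478608 in Mixed WT and 250532 to 342501 in Mixed Het. All 5 alpha cell markers, Gcg, Irx1 and Irx2 among them, were detected and none was at 0, and their sum was higher in Het samples: 17403 to 52990 TPM in C57 WT against 65984 to 109652 in C57 Het, and 14702 to 26456 in Mixed WT against 61122 to 101828 in Mixed Het. The 4 delta cell markers summed to 5539 to 8889, 10010 to 13919, 7647 to 15969 and 14672 to 32011 TPM in the same order of groups. Delta sums overlapped between genotypes in Mixed but not in C57. The 5 ductal marker sums did not overlap between genotypes in any background (125 to 142 against 162 to 278 TPM in C57, 110 to 165 against 169 to 537 in Mixed). The 5 immune markers overlapped in C57 (25.2 to 45.2 and 22.8 to 31.9 TPM) but not in Mixed (21.6 to 33.4 against 43.8 to 83.5), and the 8 acinar markers were higher on average in Het islets with overlap in both (277 ± 75.9 and 789 ± 494 TPM in C57, 484 ± 263 and 812 ± 193 in Mixed; SD, n = 5 and 6). C57 WT replicate 5 had the highest endothelial marker sum of all samples (692 TPM) and the lowest summed potassium channel level of its group (669 TPM). These values move with genotype or with 1 library, and in bulk islet RNA fewer cells of a type and less RNA per cell cannot be told apart. Sequencing depth cannot be read from TPM and is unknown here.

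The 49 detected genes spanned from 0.739 TPM (Kcnmb1) to 436 TPM (Kcnk16) as means over all samples. Of them, 13 had a mean of at least 10 TPM, 32 of 1 to 10 TPM and 4 below 1 TPM. Only 27 of the 49 reached 1 TPM in every sample, and the other 22 were under 1 TPM somewhere. A gene that passed through the group where it is high had to differ. The counts given over the 49, and the p-values of such genes, are therefore descriptions. At the edge of the rule, Kcna6 entered with 6 samples and Kcnj5, Kcnmb1 and Kcnj2 with 7, while Kcnh5 and Kcnn4 stayed out with 4 samples and Kcna1 and Kcne3 with 3.

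**Figure D1:**
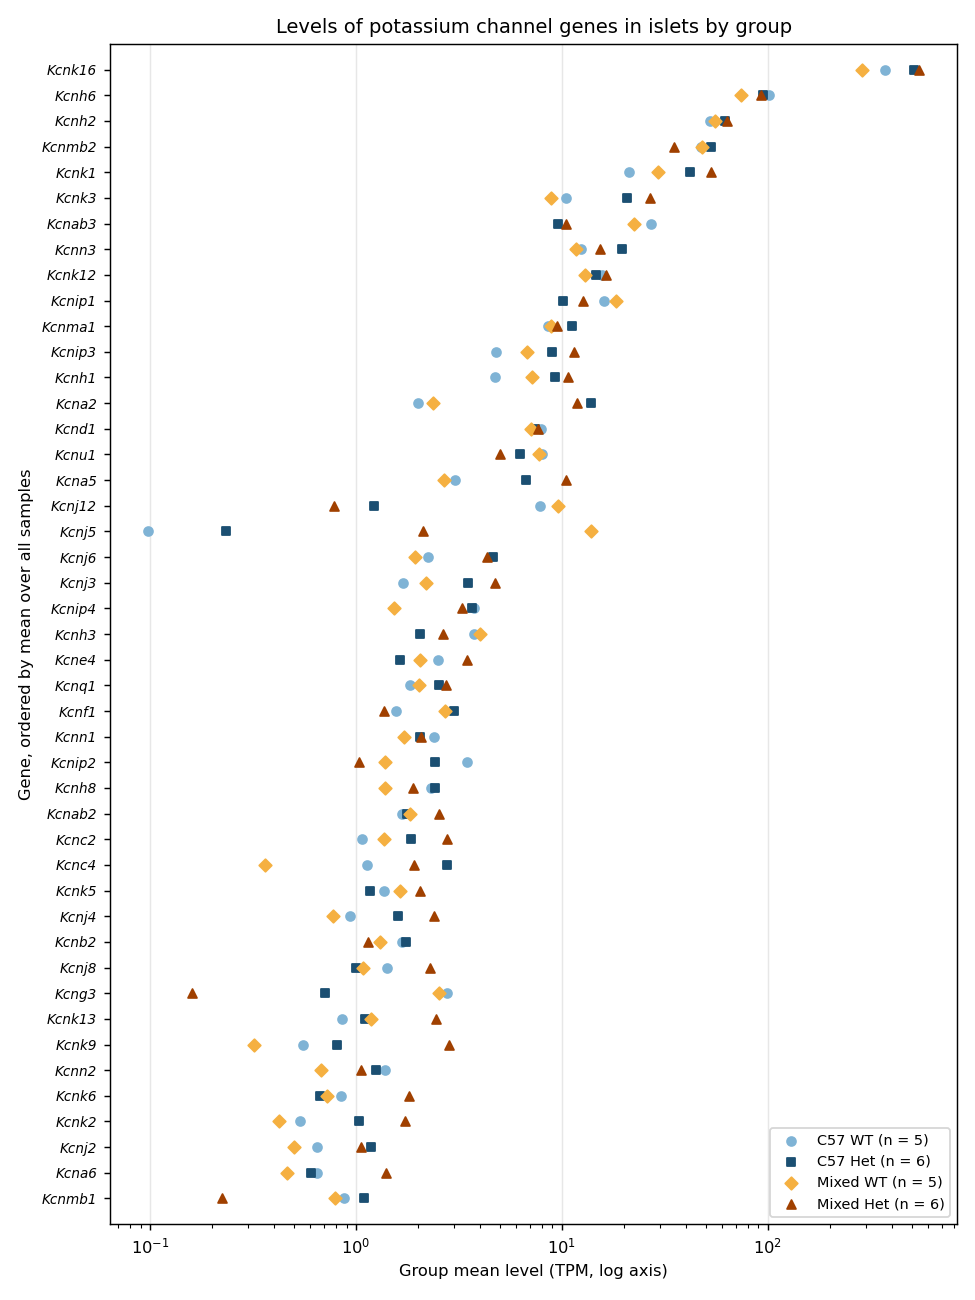
Group mean TPM (horizontal log axis) of 45 of the 49 detected potassium channel genes (vertical axis, ordered by the mean over all samples), with 1 symbol per group of 5 or 6 mice. Kcnk16 lies far to the right of every other gene shown, and wide gaps between symbols of one row are those of Kcnj5, Kcnj12 and Kcng3.

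The highest level belonged to Kcnk16, which encodes the two-pore leak channel TALK-1 of beta cells. It alone made up 33.9% to 53.3% of the summed TPM of the 93 genes in each sample. Its level was 369, 401, 423, 364 and 298 TPM in the 5 C57 WT samples and 469 at the lowest, 497 at the median and 590 at the highest in C57 Het. The Mixed WT samples had 289, 301, 223, 262 and 360 TPM against 502, 544 and 580 (lowest, median, highest) in Mixed Het. Every Het sample was above every WT sample of its background. On the log2(TPM + 1) scale used for all differences here, Kcnk16 was 0.46 higher in C57 Het (SE 0.10, limma adjusted p = 0.00131) and 0.93 higher in Mixed Het (SE 0.10, adjusted p = 3.44e-07). The difference between these 2 effects, 0.47, did not pass (adjusted p = 0.0507).

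The next levels belonged to ERG channels, which repolarise the membrane. Kcnh6, encoding ERG2, ranked second in all 4 groups. It had 149, 85.6, 91.6, 116 and 66.6 TPM in C57 WT and 77.7 to 109 (median 96.4) in C57 Het. Mixed WT samples held 79.4, 74.1, 68.2, 76.0 and 72.2 TPM, and Mixed Het samples 74.9 to 117 (median 90.6). The groups overlapped in both backgrounds and neither genotype difference passed (-0.05, adjusted p = 0.799, and 0.30, adjusted p = 0.0973). Kcnh2, encoding ERG1, had 55.0, 58.3, 53.6, 53.7 and 41.1 TPM in C57 WT against 55.8 to 66.3 (median 63.0) in C57 Het, and 58.2, 61.4, 51.6, 52.2 and 53.5 in Mixed WT against 54.8 to 79.4 (median 59.7) in Mixed Het. It was higher by 0.25 in C57 Het (SE 0.09, adjusted p = 0.0351), a call lost when C57 WT replicate 5, its low sample, was left out (0.17, adjusted p = 0.138) or when C57 Het replicate 1, 4 or 5 was. The call was also lost under median-of-ratios scaling (0.16, adjusted p = 0.0786), quantile normalization (0.15, adjusted p = 0.105), without a filter on low values and with acinar or alpha cell markers as a covariate (0.00047, adjusted p = 0.999, with the last). The Mixed difference of 0.18 did not pass (adjusted p = 0.115).

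Across the 49 genes, 19 were higher and 6 lower in C57 Het islets at a limma adjusted p under 0.05, where 26.4% of all 16756 genes tested were called higher and 11.6% lower. In the Mixed background 25 were higher and 9 lower, against 30.7% and 13.5% of all genes. The median log2 difference of the channel genes was 0.17 in C57 and 0.31 in Mixed, beside 0.08 and 0.10 for all genes tested. Median-of-ratios scaling moved the all-gene median of the Mixed comparison by -0.11, to -0.01, so small differences there are best read against that shift. In both backgrounds 16 genes were higher and 6 lower (16.9% and 5.48% of all genes), and 12 passed in neither. Het and WT samples did not overlap for 13 higher and 5 lower genes in C57 (15.9% and 5.04% of all genes) and for 17 and 5 in Mixed (17.9% and 5.76%). At an absolute log2 difference of at least 1, 3 genes were higher and 3 lower in C57 (1.56% and 1.72% of all genes) and 6 and 4 in Mixed (3.17% and 2.94%). By role, 18 of 38 tested pore genes were higher and 3 lower in C57 and 22 and 4 in Mixed, while of 9 auxiliary genes 1 was higher and 2 lower in C57 and 3 and 4 in Mixed. Without C57 WT replicate 5 the C57 counts were 15 higher and 7 lower.

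**Figure D2:**
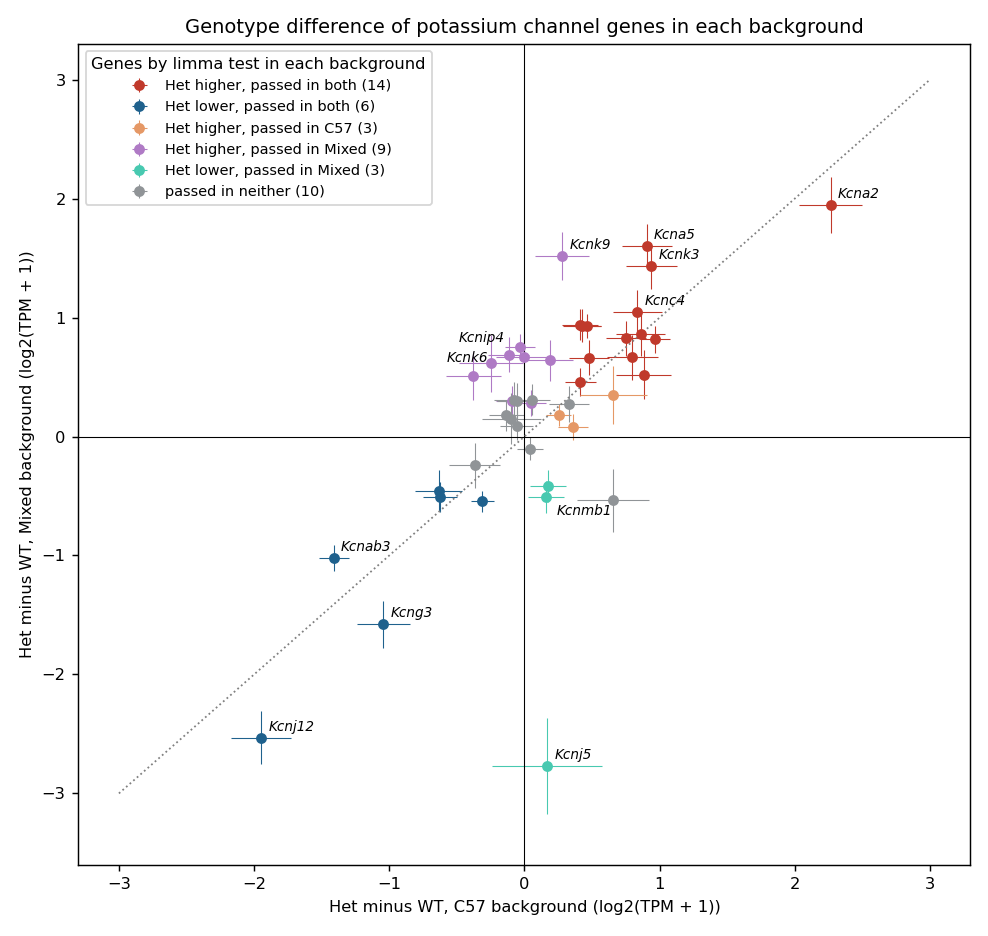
Het minus WT difference on the log2(TPM + 1) scale in the C57 background (horizontal axis) and the Mixed background (vertical axis), 1 point for each of 45 of the 49 detected genes with bars of 1 SE, coloured by the limma test in each background; the dotted line marks equal differences. Kcna2 lies at the upper right, Kcnj12, Kcng3 and Kcnab3 at the lower left, and Kcnj5 stands below the line near 0 on the C57 axis.

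The alpha cell marker sum was higher in Het islets of both backgrounds, beside these genotype differences. With the mean of those 5 markers as a covariate, an alternative added after seeing the data, 9 of the 25 C57 calls and 7 of the 34 Mixed calls kept their direction and their side of the threshold. Among these, Kcna2, Kcnk1 and Kcnh1 stayed higher and Kcnab3, Kcnj12, Kcng3 and Kcnh3 stayed lower in C57. In Mixed, Kcna2 stayed higher and Kcnab3, Kcnj12, Kcng3, Kcnj5 and Kcnh3 stayed lower. Kcnk16, the highest gene, lost both calls (0.22, adjusted p = 0.315, in C57 and 0.48, adjusted p = 0.153, in Mixed), as did Kcnk3 (0.34, adjusted p = 0.356; 0.35, adjusted p = 0.565) and Kcna5 (0.78, adjusted p = 0.0798; 1.37, adjusted p = 0.0556). Both calls were also lost for Kcnc2, Kcnc4, Kcnip1, Kcnip3, Kcnj2, Kcnj3, Kcnj4, Kcnj6, Kcnk2 and Kcnu1. Marker sums of Het and WT samples did not overlap in either background, so in that fit marker level and genotype cannot be fully told apart. Of the 5 genes whose genotype difference depended on background, Kcnj5 and Kcnip4 still passed in that fit, and Kcnk9, Kcnk6 and Kcnmb1 did not.

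Of the voltage-gated pores of the Kv1 family, Kcna2 and Kcna5 were higher in Het islets of both backgrounds. Kcna2, a low-voltage-activated Kv1 pore, had 1.68, 1.66, 1.30, 3.11 and 2.27 TPM in C57 WT and 8.13 to 20.2 (median 13.2) in C57 Het. In Mixed WT it had 3.32, 1.29, 1.26, 3.11 and 2.92 TPM and in Mixed Het 8.04 to 16.1 (median 11.4). The lowest Het sample was above the highest WT sample in each background. Means were 6.91 and 4.95 times higher, and the log2 differences were 2.27 (SE 0.23, adjusted p = 3.87e-07) and 1.94 (SE 0.23, adjusted p = 1.23e-06). Kcna5, another Kv1 pore, had 2.77, 2.86, 3.08, 3.65 and 2.72 TPM in C57 WT and 4.17 to 8.51 (median 7.26) in C57 Het. Its Mixed WT samples had 2.28, 3.69, 2.69, 2.54 and 2.16 TPM and its Mixed Het samples 7.70 to 16.8 (median 8.92). Genotypes did not overlap, and Kcna5 was higher by 0.90 in C57 (SE 0.19, adjusted p = 0.00077) and by 1.60 in Mixed (SE 0.19, adjusted p = 7.23e-07). Kcna6, the remaining detected Kv1 gene, went from 0.463 ± 0.215 (SD, n = 5) to 1.40 ± 0.739 TPM (n = 6) in Mixed (0.67, adjusted p = 0.0145) and did not pass in C57. Kcnq1, the Kv7 pore best known from heart and epithelia, averaged 1.82 to 2.72 TPM per group and passed in neither background, except as higher in C57 under quantile normalization.

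**Figure D3:**
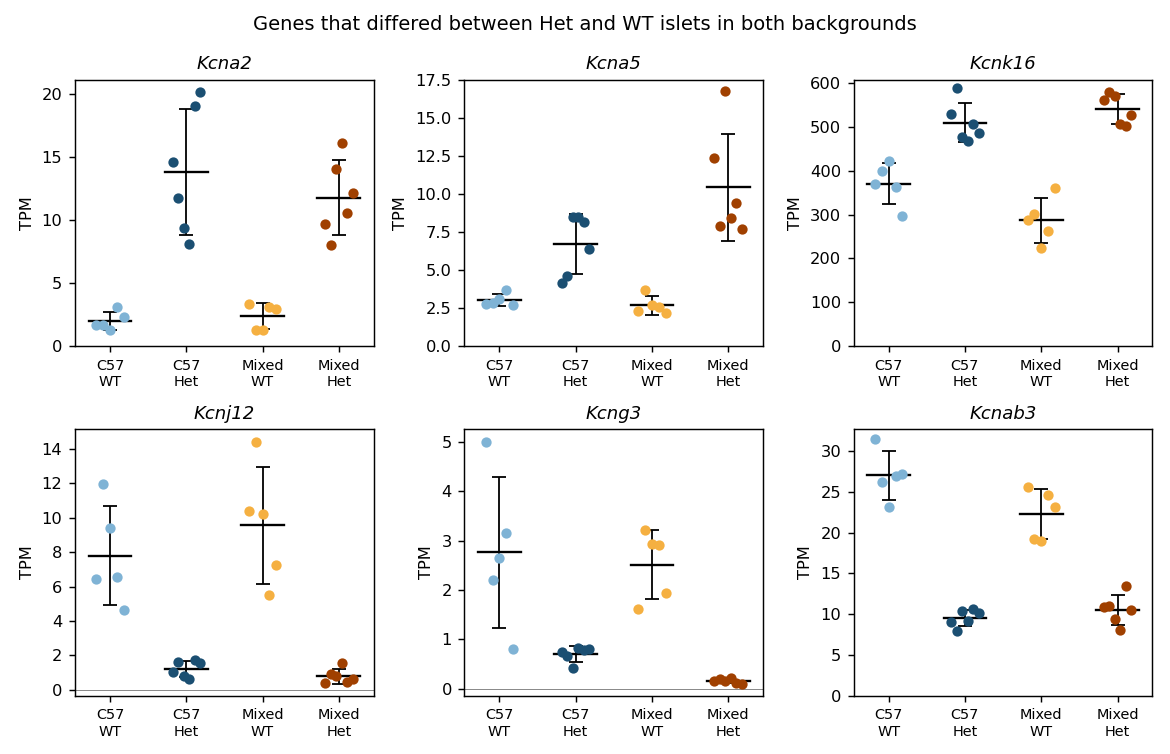
TPM of 6 potassium channel genes in each sample (points) of the 4 groups, with the group mean (line) and SD (bars), on axes that begin at 0 or just below it. Het samples of Kcna2, Kcna5 and Kcnk16 lie above and those of Kcnj12 and Kcnab3 below the WT samples of both backgrounds, and for Kcng3 1 C57 WT sample at 0.806 TPM lies within the Het range.

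The Kv3 pores Kcnc4 and Kcnc2 and the EAG pore Kcnh1 were higher in both backgrounds, and the ELK pore Kcnh3 was lower. With alpha cell markers as a covariate, Kcnc4 and Kcnc2 lost both calls and Kcnh1 lost its Mixed call. Kcnc2 lost its C57 call with acinar markers as a covariate too. Kcnc4, a Kv3 pore, had 1.89, 0.623, 1.07, 1.29 and 0.782 TPM in C57 WT against 1.93 to 3.53 (median 2.60) in C57 Het, and 0.455, 0.391, 0.192, 0.397 and 0.379 in Mixed WT against 0.946 to 3.67 (median 1.74) in Mixed Het. It was higher in both (0.84, SE 0.18, adjusted p = 0.00116; 1.05, SE 0.18, adjusted p = 8.45e-05). Kcnc2 was also higher, from 1.07 ± 0.473 to 1.84 ± 0.340 TPM in C57 and from 1.37 ± 0.372 to 2.78 ± 0.741 TPM in Mixed (SD; n = 5 and 6; limma adjusted p = 0.015 and 0.00115). Kcnh1, which encodes EAG1, rose from 4.73 ± 1.97 to 9.21 ± 2.19 TPM in C57 and from 7.19 ± 1.43 to 10.7 ± 2.17 TPM in Mixed (adjusted p = 0.00212 and 0.0444), the second call being lost under median-of-ratios scaling and quantile normalization. Kcnh3, an ELK pore, was lower, from 3.73 ± 0.975 to 2.05 ± 0.566 and from 3.99 ± 1.04 to 2.65 ± 0.874 TPM (adjusted p = 0.00706 and 0.0378). Kcnh8, of the same family, was higher in Mixed, a call lost under both scalings (0.28, adjusted p = 0.0416), with group means of 1.38 to 2.43 TPM. Kcnd1 (Kv4, 7.11 to 7.88 TPM) and Kcnb2 (Kv2, 1.15 to 1.75 TPM) passed in neither background.

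The two-pore leak channels that passed were higher in Het islets in the fit without a marker covariate. Of 9 detected members, 4 were higher and none lower in C57 (26.4% and 11.6% of all genes), and 8 were higher and none lower in Mixed (30.7% and 13.5%), or 7 under median-of-ratios scaling or quantile normalization, where Kcnk12 was lost. With the alpha cell markers as a covariate, Kcnk1 alone stayed higher in C57, Kcnk12 passed there as lower (-0.51, adjusted p = 0.0187), and no member passed in Mixed. Kcnk1, encoding TWIK-1, had 18.6, 28.5, 23.0, 20.4 and 16.0 TPM in C57 WT and 39.6 to 46.3 (median 41.3) in C57 Het. Mixed WT samples had 28.2, 31.7, 26.1, 34.7 and 26.6 TPM and Mixed Het samples 41.1 to 59.4 (median 54.0). No sample overlapped between genotypes, and Kcnk1 was higher by 0.97 (SE 0.11, adjusted p = 1.85e-06) and 0.82 (SE 0.11, adjusted p = 6.33e-06). Kcnk3, the acid-sensitive leak channel TASK-1, had 14.9, 10.3, 10.1, 8.32 and 8.81 TPM in C57 WT and 18.2 to 25.8 (median 19.4) in C57 Het. In Mixed it had 9.64, 11.2, 6.96, 9.71 and 7.01 TPM in WT and 18 to 43.2 (median 22.1) in Het. It was higher by 0.94 (SE 0.19, adjusted p = 0.000721) and 1.43 (SE 0.19, adjusted p = 4.42e-06), again with no overlap. Kcnk2, the mechanosensitive TREK-1, rose from 0.537 ± 0.269 to 1.04 ± 0.301 TPM in C57 and from 0.421 ± 0.163 to 1.74 ± 0.371 TPM in Mixed (adjusted p = 0.0185 and 9.21e-06). The THIK channels Kcnk12 (13.0 to 16.4 TPM) and Kcnk13 (0.856 to 2.43 TPM) passed in Mixed alone (0.30, adjusted p = 0.0487; 0.64, adjusted p = 0.00501), and their background dependence did not pass (adjusted p = 0.152 and 0.247). Kcnk5, TASK-2, averaged 1.16 to 2.04 TPM and passed in neither.

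Inward rectifiers divided by member in the fit without a marker covariate. With alpha cell markers as a covariate, Kcnj2, Kcnj3, Kcnj4 and Kcnj6 lost their calls in both backgrounds, and Kcnj8 lost its Mixed call. The G-protein-gated pores Kcnj3 and Kcnj6, through which somatostatin and adrenergic receptors hyperpolarise islet cells, were higher in both backgrounds. Kcnj3 went from 1.69 ± 0.546 to 3.49 ± 0.645 TPM in C57 and from 2.18 ± 0.330 to 4.72 ± 1.22 TPM in Mixed (adjusted p = 0.000547 and 0.000127), and Kcnj6 from 2.23 ± 0.955 to 4.61 ± 0.613 and from 1.94 ± 0.497 to 4.31 ± 0.666 TPM (adjusted p = 0.000961 and 0.000642). The strong rectifiers Kcnj2 and Kcnj4 were higher at lower levels: Kcnj2 averaged 0.499 to 1.18 TPM per group (0.41, adjusted p = 0.00787; 0.46, adjusted p = 0.00306) and Kcnj4 0.773 to 2.39 TPM (0.43, adjusted p = 0.0214; 0.93, adjusted p = 2e-05). Kcnj8, the pore of vascular and pericyte ATP-sensitive channels, rose from 1.08 ± 0.632 to 2.29 ± 1.43 TPM in Mixed (adjusted p = 0.0408), a call lost under median-of-ratios scaling, and did not pass in C57. The sum of the 7 mesenchymal markers, pericyte genes included, ranged from 136 to 204 TPM in Mixed WT and from 129 to 510 TPM in Mixed Het; its part in the Kcnj8 difference was not tested.

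Another strong inward rectifier went the other way. Kcnj12 had 6.41, 11.9, 9.41, 6.56 and 4.65 TPM in C57 WT and 10.4, 14.4, 10.2, 5.50 and 7.27 TPM in Mixed WT. Het samples had 0.641 to 1.71 TPM (median 1.30) in C57 and 0.404 to 1.54 (median 0.701) in Mixed. WT means were 6.35 and 12.2 times the Het means, with log2 differences of -1.95 (SE 0.22, adjusted p = 1.52e-06) and -2.53 (SE 0.22, adjusted p = 1.94e-08), and the 2 differences were not shown to differ (adjusted p = 0.246).

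The other genes lower in both backgrounds were the modifiers Kcnab3, Kcng3 and Kcnip1 and the pores Kcnh3 and Kcnu1. With alpha cell markers as a covariate, Kcnip1 and Kcnu1, and Kcnip3 given below, lost both calls. Kcnab3, a cytoplasmic beta subunit of Kv1 channels, had 31.5, 26.2, 23.2, 27.0 and 27.1 TPM in C57 WT and 7.90 to 10.6 (median 9.66) in C57 Het, and 25.6, 19.2, 18.9, 24.6 and 23.2 TPM in Mixed WT against 8.0 to 13.5 (median 10.7) in Mixed Het. It differed by -1.41 (SE 0.11, adjusted p = 1.07e-08) in C57 and by -1.02 in Mixed (SE 0.11, adjusted p = 2.81e-07). Kcng3, an electrically silent Kv6 subunit that modifies Kv2 pores, had 5.01, 2.20, 2.65, 3.16 and 0.806 TPM in C57 WT and 0.412 to 0.824 (median 0.765) in C57 Het. Mixed WT samples had 1.61, 3.21, 2.93, 2.91 and 1.93 TPM and Mixed Het samples 0.104 to 0.219 (median 0.162). It differed by -1.04 in C57 (SE 0.20, adjusted p = 0.000417), where C57 WT replicate 5 overlapped the Het samples, and by -1.58 in Mixed (SE 0.20, adjusted p = 2.28e-06), where no sample did. No Het sample of Kcng3 reached 1 TPM, so the gene met the detection rule through WT samples alone. Its p-values and the lack of overlap in Mixed are therefore descriptions. Kcnip1, a calcium-binding KChIP subunit of Kv4 channels, fell from 16.0 ± 2.12 to 10.1 ± 2.18 TPM and from 18.4 ± 1.65 to 12.7 ± 1.69 TPM (adjusted p = 0.000551 and 0.00222). Kcnip3, a KChIP also known as the transcriptional repressor DREAM, was instead higher, from 4.77 ± 1.52 to 8.97 ± 2.08 and from 6.76 ± 1.61 to 11.5 ± 3.77 TPM (adjusted p = 0.00251 and 0.00717). Kcnu1, the SLO3 pore otherwise known from sperm, fell from 8.0 ± 0.607 to 6.28 ± 0.808 and from 7.77 ± 0.330 to 5.03 ± 0.604 TPM (adjusted p = 0.00718 and 3.21e-05).

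MAF factors bind elements built around the half-site TGCTGA, and windows of 250 bases before the RefSeq start (build GRCm38.p6) were searched for it on both strands, where the opposite strand reads TCAGCA. Windows were at hand for 69 of the 93 genes. The half-site was present in 16.1% of all 32851 windows and in 13 of 94 windows of channel genes (13.8%); 1.66% of all windows and 4.26% of the channel gene windows held it at least 2 times. Of the genes lower in both backgrounds, 3 had a window and 2 of them, Kcnj12 and Kcnip1, held a match, and so did 2 of 13 genes higher in both (Kcnc2 and Kcnk2), 1 of 7 higher in Mixed only (Kcnip4), 2 of 6 that passed in neither (Kcnab2 and Kcnh6) and 3 of 34 not tested. No match was found for the 3 genes higher in C57 only or the 3 lower in Mixed only. Besides Kcnj12 and Kcnip1, Kcnh6 and the untested Kcna10 held 2 matches in a window. The classes were not compared by a test. The windows below, chosen after these values were seen, are those of Kcnj12 and Kcnip1, which were lower in Het islets, and of Kcna2, which was higher; they run 5′ to 3′ on the gene's strand with the half-site in capitals on either strand. Kcnj12 lies at chr11:61065554-61065803 on the plus strand, with matches beginning 202 and 193 bases before the start. The Kcnip1 window, 1 of 3 for that gene, lies at chr11:33993194-33993443 on the minus strand, with matches 115 and 12 bases before the start, and the Kcna2 window at chr3:107101317-107101566 on the plus strand holds none.
Kcnj12: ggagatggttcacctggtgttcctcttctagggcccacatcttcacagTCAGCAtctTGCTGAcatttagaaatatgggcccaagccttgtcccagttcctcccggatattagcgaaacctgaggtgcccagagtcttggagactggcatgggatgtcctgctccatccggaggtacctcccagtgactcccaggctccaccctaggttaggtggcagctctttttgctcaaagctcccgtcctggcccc
Kcnip1: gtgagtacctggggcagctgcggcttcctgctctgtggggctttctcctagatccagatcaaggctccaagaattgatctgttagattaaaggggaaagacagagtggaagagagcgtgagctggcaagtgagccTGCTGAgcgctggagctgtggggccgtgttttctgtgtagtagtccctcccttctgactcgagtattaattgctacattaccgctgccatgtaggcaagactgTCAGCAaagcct
Kcna2: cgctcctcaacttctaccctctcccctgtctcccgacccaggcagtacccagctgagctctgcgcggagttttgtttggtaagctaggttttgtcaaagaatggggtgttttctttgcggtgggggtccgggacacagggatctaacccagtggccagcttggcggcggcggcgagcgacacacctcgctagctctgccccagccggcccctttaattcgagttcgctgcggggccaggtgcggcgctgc
A match of 6 bases describes the letters of the window and is not evidence of binding.

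The genotype difference depended on background for 5 of the 49 genes, beside 7.36% of all genes. It was more positive in Mixed for 3 (4.62% of all genes) and more negative for 2 (2.74%), and 1 in each direction had an absolute difference of at least 1 (0.985% and 0.698%). Kcnj5, encoding the G-protein-gated pore GIRK4, was the most marked. It was close to 0 in C57 islets of both genotypes, with 0.109, 0.125, 0.0265, 0.0509 and 0.178 TPM in WT and 0.184 to 0.292 (median 0.222) in Het. Mixed WT islets had 16.7, 14.6, 12.6, 6.78 and 18.2 TPM, and Mixed Het islets 0.0653 to 9.34 (median 0.352), 1 sample at 9.34 and the next at 2.51. Kcnj5 was 3.69 higher in Mixed WT than in C57 WT (SE 0.42, adjusted p = 8.14e-06). It differed by -2.77 between Mixed Het and Mixed WT (SE 0.41, adjusted p = 1.39e-05), and gave an interaction of -2.94 (SE 0.57, adjusted p = 0.00559). The gene met the detection rule in 7 samples, all of the Mixed background, so these p-values are descriptions.

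Kcnip4, a KChIP subunit of Kv4 channels, had 3.40, 3.74, 3.71, 4.03 and 3.80 TPM in C57 WT and 2.69 to 4.80 (median 3.75) in C57 Het. In Mixed it had 1.46, 1.7, 1.31, 1.73 and 1.45 TPM in WT and 2.61 to 4.09 (median 3.20) in Het. Mixed WT samples were thus below all others, and the gene was lower in Mixed than in C57 WT (-0.91, SE 0.11, adjusted p = 2.55e-05), 0.75 higher in Mixed Het than Mixed WT (SE 0.11, adjusted p = 1.26e-05) and gave an interaction of 0.78 (SE 0.15, adjusted p = 0.00576). Kcnk9, the acid-sensitive leak channel TASK-3, had 1.42, 0.341, 0.148, 0.737 and 0.108 TPM in C57 WT, 0.595 to 1.07 (median 0.777) in C57 Het, 0.181, 0.0931, 0.107, 0.751 and 0.459 in Mixed WT and 1.28 to 4.03 (median 2.94) in Mixed Het. It was higher in Mixed Het (1.52, SE 0.20, adjusted p = 3.87e-06) with an interaction of 1.24 (SE 0.28, adjusted p = 0.013). That interaction call was lost with a pseudocount of 0.1 in place of 1, and the Kcnk6 one given next was lost without a filter on low values (limma adjusted p = 0.0506). Kcnk6, encoding TWIK-2, had 1.13, 0.445, 0.668, 0.529 and 1.46 TPM in C57 WT, 0.451 to 0.897 (median 0.685) in C57 Het, 0.737, 0.938, 0.543, 0.539 and 0.850 in Mixed WT and 1.06 to 2.77 (median 1.81) in Mixed Het, and gave an interaction of 0.80 (SE 0.21, adjusted p = 0.0248). Kcnk9 and Kcnk6 met the detection rule only with their Mixed Het samples, where they were highest, so their p-values are descriptions.

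Both detected beta subunits of BK channels, which tune the calcium sensitivity of that pore, were lower in Mixed Het islets. Kcnmb2 had 37.3, 59.0, 57.2, 44.8 and 38.3 TPM in C57 WT, 47.3 to 59.3 (median 51.2) in C57 Het, 54.5, 57.9, 46.3, 32.1 and 47.3 in Mixed WT and 31.6 to 43.0 (median 34.0) in Mixed Het. Its difference was -0.42 in Mixed (SE 0.13, adjusted p = 0.0159), lost without Mixed WT replicate 2 (-0.34, adjusted p = 0.0542), and 0.17 in C57 (adjusted p = 0.325); the interaction did not pass (-0.59, adjusted p = 0.0603) but did under both scalings. Mixed Het samples were all below C57 Het samples (-0.58, SE 0.13, adjusted p = 0.00288). Kcnmb1 had 1.02, 0.931, 0.800, 0.706 and 0.915 TPM in C57 WT, 0.871 to 1.24 (median 1.15) in C57 Het, 0.862, 1.21, 1.23, 0.386 and 0.242 in Mixed WT and 0.136 to 0.418 (median 0.193) in Mixed Het. Its difference was -0.51 in Mixed (SE 0.13, adjusted p = 0.00421) and its interaction -0.67 (SE 0.19, adjusted p = 0.0359), which was lost when any of 13 single samples was left out (adjusted p 0.0506 to 0.0708 there). The interaction was also lost without a filter on low values (adjusted p = 0.0571) and with acinar markers as a covariate (adjusted p = 0.0517). Kcnmb1 met the detection rule only with its C57 Het samples, where it was highest, so its p-values are descriptions. The BK pore itself, Kcnma1, was higher in C57 Het, 8.54 ± 1.37 against 11.2 ± 1.54 TPM (adjusted p = 0.0138), and did not pass in Mixed, where it averaged 8.87 and 9.42 TPM. Its C57 call was lost with acinar or alpha cell markers as a covariate.

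**Figure D4:**
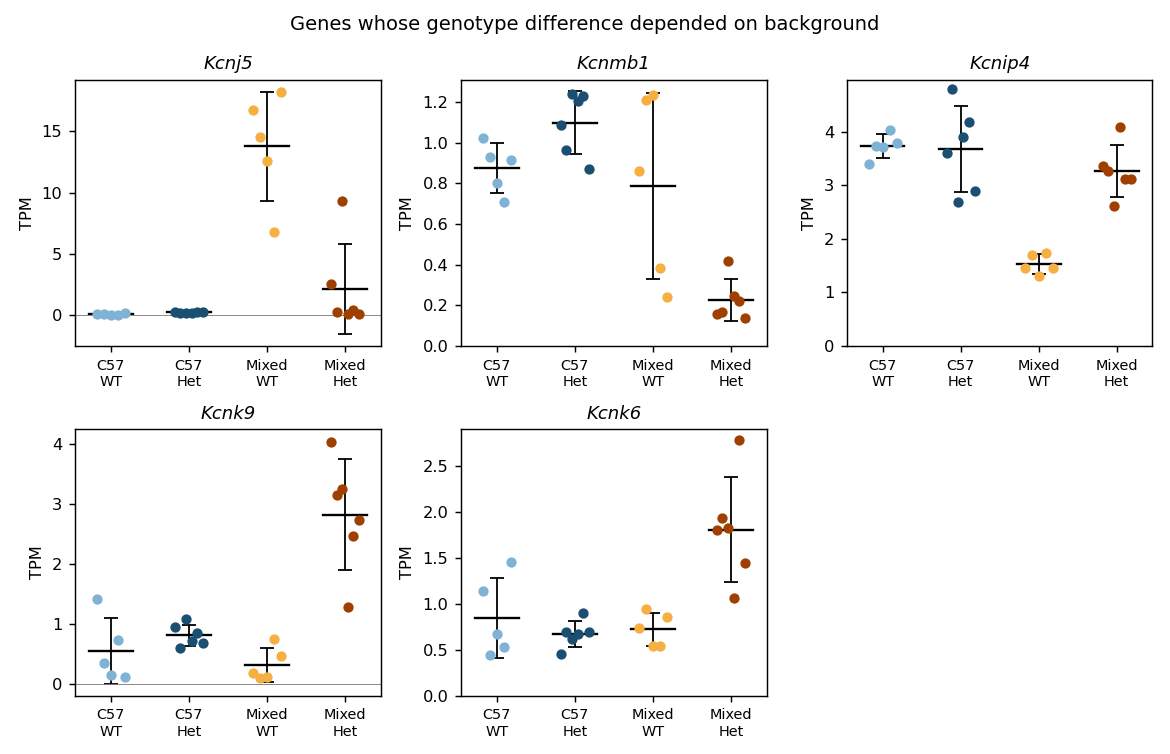
TPM of the 5 genes with a genotype by background interaction in each sample (points), with the group mean (line) and SD (bars). Kcnj5 is high in Mixed WT samples and near 0 in both C57 groups, Kcnmb1 is lowest in Mixed Het, Kcnip4 is lowest in Mixed WT, and Kcnk9 and Kcnk6 are highest in Mixed Het.

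Between backgrounds, 9 channel genes differed in WT islets (11.3% of all genes): 3 were higher and 6 lower in Mixed (6.3% and 4.99%). In Het islets 16 differed (20.5%), 8 higher and 8 lower in Mixed (13.3% and 7.13%). Samples did not overlap for 1 higher and 3 lower genes in WT (2.91% and 3.21%) and for 2 higher and 6 lower genes in Het (6.56% and 3.28%). With an absolute log2 difference of at least 1, 1 gene was higher and 0 lower in either genotype (1.57% and 0.716% of all genes in WT, 1.75% and 0.627% in Het). Besides Kcnj5 and Kcnip4, the WT calls included Kcnk1 (0.47, adjusted p = 0.0123), Kcnk16 (-0.38, adjusted p = 0.0238), Kcnc4 (-0.62, adjusted p = 0.0363), Kcnip2 (-0.86, adjusted p = 0.00678), Kcnh8 (-0.48, adjusted p = 0.00921) and Kcnn2 (-0.52, adjusted p = 0.0302). Kcnip2, a KChIP subunit, was lower in Mixed in both genotypes, with group means of 3.47 and 2.43 TPM in C57 WT and Het against 1.39 and 1.03 TPM in Mixed, and its genotype differences did not pass, except in C57 under median-of-ratios scaling, where it was lower. Among Het islets the largest was Kcnk9 at 1.04 (SE 0.19, adjusted p = 0.000587). By size, Kcnmb1 (-0.78, adjusted p = 0.000217), Kcnf1 (-0.78, adjusted p = 0.032), Kcnip2 (-0.73, adjusted p = 0.00621), Kcnk6 (0.73, adjusted p = 0.00101), Kcne4 (0.72, adjusted p = 0.0108) and Kcnk13 (0.69, adjusted p = 0.00513) followed. The Kcnf1 call was lost when any of 8 single samples was left out (adjusted p 0.0534 to 0.0739 there). Kcne4, a single-pass auxiliary subunit, was also higher in Mixed Het than Mixed WT (0.51, adjusted p = 0.0446), a call lost under both scalings, and averaged 1.64 to 3.47 TPM per group. The part of the immune and ductal marker sums, which were higher in Mixed Het, in the differences of Kcnk6, Kcnk13 and Kcne4 was not tested.

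The remaining detected genes had calcium-activated or modifier roles. Kcnn3, a small-conductance SK channel, went from 12.4 ± 4.12 to 19.7 ± 5.72 TPM in C57 (0.66, adjusted p = 0.04) and did not pass in Mixed. The C57 call of Kcnn3 was lost under quantile normalization, without a filter on low values and when only C57 samples were fitted. It was also lost with acinar or alpha cell markers as a covariate. The Kcnn3 relatives Kcnn1 (1.7 to 2.4 TPM) and Kcnn2 (0.678 to 1.38 TPM), the Kv beta gene Kcnab2 (1.68 to 2.52 TPM) and the silent Kv5 subunit Kcnf1 (1.36 to 2.99 TPM) passed for genotype in neither background. Under quantile normalization Kcnf1 did pass as higher in C57, and its interaction passed as negative under both scalings. In Mixed WT, 1 sample of Kcnf1 had 6.63 TPM, with the next at 2.32.

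The 44 genes outside the detection rule peaked at 2.82 TPM (Kcnh5), 37 of them stayed under 1 TPM in every sample and 12 under 0.1 TPM. Among voltage-gated pores these were Kcna1, Kcna3, Kcna4, Kcna7, Kcna10, Kcnc1, Kcnd2, Kcnd3, Kcnq3, Kcnq5, Kcnh4, Kcnh5 and Kcnh7, and among silent modifiers Kcng1, Kcng2, Kcng4, Kcns1, Kcns2, Kcns3, Kcnv1 and Kcnv2. Inward rectifiers outside the rule were Kcnj1, Kcnj9, Kcnj10, Kcnj13, Kcnj14, Kcnj15 and Kcnj16, and two-pore channels were Kcnk4, Kcnk7, Kcnk10, Kcnk15 and Kcnk18. Kcnn4, the sodium-activated pores Kcnt1 and Kcnt2, and the auxiliary genes Kcnab1, Kcne1, Kcne1l, Kcne2, Kcne3, Kcnmb3, Kcnmb4 and Kcnrg complete the list. The 7 that reached 1 TPM somewhere were Kcnt1, Kcnn4, Kcnmb4, Kcnh5, Kcne3, Kcna1 and Kcnq3. Kcnh5, the EAG2 pore, reached it in 4 of 5 Mixed WT samples and in no other group.

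Some calls near the threshold were lost when 1 sample was left out. Without C57 WT replicate 5 the C57 calls of Kcnma1 (adjusted p = 0.0561), Kcnn3 and Kcnj4 were lost; the Kcnj4 call was also lost without C57 WT replicate 4, and that of Kcnn3 without C57 Het replicate 1, 2, 5 or 6 (highest adjusted p = 0.166). In the Mixed comparison, leaving out 1 sample ended the call of Kcnk12 for 13 choices of sample, of Kcne4 and Kcnh1 for 10, of Kcnh8 for 9 and of Kcnh3 and Kcnj8 for 7, with adjusted p up to 0.142. For Kcnk12, Kcne4 and Kcnh1 some of these choices were C57 samples. Those enter the Mixed comparison only through the shared estimate of the spread. The Mixed calls of Kcnk12, Kcne4, Kcnh1, Kcnh8, Kcnh3 and Kcnj8 were also lost without a filter on low values and with acinar markers as a covariate. Among the differences between WT backgrounds, Kcnc4 was lost for 7 choices, Kcnn2 for 6 and Kcnk16 for 3.

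Potassium transport genes outside the Kcn families gave context, from lists of 44 channel partners, pumps and cotransporters of which 29 were tested. Of these, 7 were higher and 6 lower in C57 and 12 higher and 3 lower in Mixed, beside 26.4% and 11.6% of all genes in C57 and 30.7% and 13.5% in Mixed. Dpp6 and Dpp10, membrane auxiliary subunits of Kv4 channels, were both higher: Dpp6 from 3.78 to 7.65 and from 6.24 to 13.3 TPM (0.86, adjusted p = 0.000372; 0.94, adjusted p = 8.92e-05) and Dpp10 from 3.04 to 10.9 and from 2.64 to 9.37 TPM (1.59, adjusted p = 5.21e-08; 1.5, adjusted p = 4.97e-08). Slc12a7, a potassium-chloride cotransporter, was lower, from 27.3 to 14.1 and from 24.3 to 10.3 TPM (-0.90, adjusted p = 1.07e-05; -1.15, adjusted p = 1.87e-07). Atp1b3, a beta subunit of the sodium-potassium pump, was higher by 0.53 and 0.54 (adjusted p = 8.9e-05 and 4.13e-05). Slc12a2, the sodium-potassium-chloride cotransporter, was higher by 0.30 and 0.52 (adjusted p = 0.0492 and 0.00117), the first call being lost without any of 15 single samples. Cngb3, a cyclic-nucleotide-gated channel subunit, was higher by 0.42 and 0.58 (adjusted p = 0.0095 and 0.000698) at group means of 0.314 to 1.44 TPM. Several of these calls were lost with alpha cell markers as a covariate, the limit also given for the channel genes. They were those of Dpp6 and Cngb3 in both backgrounds (limma adjusted p = 0.106 and 0.436 there for Dpp6, 0.199 and 0.295 for Cngb3). In Mixed, those of Dpp10 (0.0726), Atp1b3 (0.0958) and Slc12a2 (0.667) were lost too. Both Slc12a7 calls were kept throughout.

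Several channel genes overlap an exon of another gene, mostly on the opposite strand, among them Kcnab3, Kcnh3, Kcnk1, Kcnk3, Kcnip4, Kcnj3, Kcnj6 and Kcnma1. Whether reads were counted by strand is not given in the sources used here, so reads of such pairs may not be told apart and these genes' levels are uncertain to that extent. Each mouse gave 1 library, so the p-values set a difference against the spread between mice. That spread was pooled over the 4 groups and drawn toward a trend over all genes.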

How the data were processed

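Poly(A) RNA of islets from 22 male mice, 1 library per mouse, was sequenced by the authors. The deposited table gives TPM, a length-corrected transcript share, per gene and sample. The submitters' processing notes name STAR 2.7.10b, MultiQC 1.7 and mm39. The counting tool and its strand setting are not given in the sources used here. Each deposited TPM column sums to 1000000, so depth is unknown and no counting interval or count test was possible.

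Samples were grouped by labelled genotype and background. TPM values were transformed to log2(TPM + 1) after keeping rows with at least 1 TPM in at least 5 samples (16756 of 57010; 147 symbols occur more than once and each row was kept). One model with 4 group means was fitted across all genes with limma 3.58.1 in R 4.3.3 (empirical Bayes with a trend), and p-values were adjusted by Benjamini and Hochberg over all genes, with a threshold of 0.05. The fit was tested on simulated data. A pseudocount of 1 shrinks differences of low genes. Contrasts within 1 background share no samples with the other, while contrasts that share a group are not independent.

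The channel genes and all lists were chosen with earlier results of these data known. Values per sample are given for the 10 genes with the highest mean, for genes called with an absolute log2 difference of at least 1, and for genes with an interaction. Replicate numbers follow deposition order and pair nothing. Alternatives covered the pseudocount, the filter, 2 scalings, the samples fitted, marker covariates and each sample left out. Promoter windows came from RefSeq on GRCm38.p6, another build than mm39, so no other coordinates are printed. GENCODE M21 served only for names of overlapping genes. The values of some genes are not reported here, though they stay in the counts over all genes tested and over the 49 detected genes.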

Additional observations from a re-analysis of the deposited data

Results flagged for a closer look

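Among 68 sample groups of the genes described sample by sample, 6 single-sample values stood far from the rest of their group; chance flags about 1 group in 20. The lowest C57 WT sample of Kcnh2 had 41.1 TPM, with the next at 53.6. The highest Mixed Het sample of Kcnmb2 had 43.0 TPM, with the next at 34.0. The lowest Mixed Het sample of Kcnk1 had 41.1 TPM, with the next at 53.0. The highest Mixed Het sample of Kcnj5 had 9.34 TPM, with the next at 2.51. The lowest Mixed WT sample of Kcnc4 had 0.192 TPM, with the next at 0.379. The lowest C57 Het sample of Kcng3 had 0.412 TPM, with the next at 0.669.

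The genotype difference itself differed between backgrounds for 5 genes by the interaction term in limma, on the log2(TPM + 1) scale as Mixed minus C57. The interaction was -2.94 for Kcnj5 (adjusted p = 0.00559), 0.78 for Kcnip4 (adjusted p = 0.00576), 1.24 for Kcnk9 (adjusted p = 0.013), 0.80 for Kcnk6 (adjusted p = 0.0248) and -0.67 for Kcnmb1 (adjusted p = 0.0359). Kcnj5 met the detection rule through Mixed samples alone. Kcnk9 and Kcnk6 met it only with their Mixed Het samples, and Kcnmb1 only with its C57 Het samples, the groups where they were highest. The p-values of these genes are therefore descriptions. The calls of Kcnk9, Kcnk6 and Kcnmb1 were each lost under some of the alternatives.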

How the results depend on the processing

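Of the channel genes described sample by sample, 16 gave 42 called differences, and none changed sign under any alternative. Leaving aside the size threshold, 18 kept their call under each alternative that could test them and 24 lost it under at least 1; 12 of the 18 also had an absolute log2 difference of at least 1. A mean of at least 5 TPM left 19 of the 42 to test. Counts are of potassium channel genes unless stated, and the main counts are those of the report. With a mean of at least 5 TPM required, which leaves fewer genes to test, C57 had 11 higher and 3 lower, Mixed 9 and 4, the interaction 1 positive and 0 negative, Mixed against C57 in WT 1 higher and 1 lower and in Het 2 and 3; other potassium transport genes had 2 interaction calls and 7 in the Het background comparison. The 5 interaction genes of the main fit were all below that mean and not tested there, so the 1 positive interaction belongs to another gene. With an absolute log2 difference of at least 1 required, C57 had 3 and 3, Mixed 6 and 4, the interaction 1 and 1, the WT backgrounds 1 and 0 and the Het backgrounds 1 and 0, and the transport genes 1 in C57, 2 in Mixed, 2 in the interaction and 1 between Het backgrounds. With alpha cell markers as a covariate, C57 had 5 higher, Mixed 2 higher and 5 lower, the interaction 1 negative and the WT backgrounds 2 lower, and the transport genes 5 in C57 and 1 in Mixed. With acinar markers as a covariate there was 1 negative interaction and 3 lower genes between WT backgrounds, and 2 transport genes in the interaction. Without a filter the transport genes had 2 interaction calls. Fitted on the contrast's own samples, the WT backgrounds had 1 higher and 3 lower. Median-of-ratios scaling and quantile normalization each gave 4 negative interactions, so that positive ones made up 42.9% of interaction calls in place of 60%, and quantile normalization gave 7 higher and 11 lower genes between Het backgrounds (38.9% higher in place of 50%). For the covariates and scalings the cause was not tested.

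Leaving out each sample in turn gave 15 to 20 higher and 6 to 7 lower genes in C57, 20 to 26 and 7 to 9 in Mixed, 3 to 5 positive and 1 to 4 negative interactions, 2 to 4 higher and 3 to 9 lower between WT backgrounds and 6 to 13 higher and 5 to 8 lower between Het backgrounds; other transport genes ranged over 11 to 14 in C57, 12 to 20 in Mixed, 2 to 5 in the interaction, 2 to 5 between WT and 8 to 13 between Het backgrounds. The most lower genes between WT backgrounds, 9, came without C57 WT replicate 5, and the fewest, 3, without C57 WT replicate 3. No paired analysis was possible because replicate numbers follow deposition order and the labels pair no mice. Depth is unknown, so the precision of genes near 1 TPM cannot be stated.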
